A study of Mus musculus with 6 samples.

Results

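Gene expression was compared between mouse embryonic stem cells carrying a short hairpin RNA (shRNA) against Mbd3 and stem cells carrying a control shRNA, both collected at day 0, before differentiation. The comparison uses 2 of the 6 arrays of the series, 1 for each group, and every probe set whose annotation names exactly 1 gene: 23521 of 34351 probe sets, which stand for 22180 genes. The shRNAs were delivered by lentivirus, and the cells grew on gelatin, without a stated feeder layer, in serum medium with leukemia inhibitory factor (LIF). The other 4 arrays hold Chd4-knockdown cells at day 0 and Mbd3-knockdown, Chd4-knockdown and control cells after 4 days of neural differentiation as aggregates in medium with serum replacement. The stem cell line, the shRNA sequences and the number of cultures behind each array are not given in the sources used here.

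MBD3 belongs to NuRD, a complex that remodels nucleosomes and deacetylates histones: it takes acetyl groups off histones through HDAC1 and HDAC2 and moves nucleosomes through the ATPase CHD4. MBD3 carries a methyl-CpG-binding domain, but the mammalian protein binds methylated DNA poorly, unlike its paralog MBD2, which takes its place in a separate form of the complex. In stem cells NuRD sits at many active promoters and enhancers, where it tempers transcription, and it is known for holding back genes of the naive state and of the trophectoderm and for allowing cells to leave self-renewal.

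Values are array intensities before any logarithm, as deposited. Their median over all probe sets was 40.1 on the Mbd3-knockdown array and 41.3 on the control array, and between 39.6 and 41.4 over the 6 arrays. A gene entered the comparison if its higher day-0 intensity was at least the median of the array it came from, which held for 13389 genes. Differences are log2 intensity in Mbd3-knockdown cells minus log2 intensity in control cells. With 1 array a side no difference has a replicate check or a test, and "higher" and "lower" describe these arrays; the number of arrays limits the precision. Where 1 of the intensities lay under 41.3, the fold is given as a bound against that floor. Of the 10 stem cell markers, 9 lay above the floor in both groups, among them Nanog at 2082 in Mbd3-knockdown and 2305 in control cells and Sox2 at 1578 in Mbd3-knockdown and 1459 in control cells. Summed over its 6 markers, of which Col3a1 and Postn lay under the floor in both groups, the fibroblast signal was 292 in Mbd3-knockdown and 322 in control cells, with 0 of 6 higher in the knockdown. The sums were 205 in Mbd3-knockdown and 244 in control cells for the 5 neural progenitor markers, of which Fabp7 and Zic1 lay under the floor in both, 599 in Mbd3-knockdown and 675 in control cells for the 7 trophectoderm markers, and 323 in Mbd3-knockdown and 355 in control cells for the 5 of primitive endoderm. The sum over the 10 stem cell markers was 11227 in Mbd3-knockdown and 12559 in control cells, with 7 lower and 3 higher. For the 4 neuron markers it was 423 in Mbd3-knockdown and 513 in control cells. These sums, that of stem cells included, were lower with Mbd3 shRNA, and their part in the gene differences was not tested.

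The Mbd3 probe set had an intensity of 92.8 in Mbd3-knockdown cells, 204 in Chd4-knockdown cells and 216 in control cells. It was the 16th lowest of the genes that were above the floor in both groups, with a log2 difference of -1.22. The remaining 17 genes of the NuRD list, which also holds paralogs and the factors Sall1, Sall4 and Zfp296, all lay within 1.5-fold of control. Mbd2 stood at 167 in Mbd3-knockdown and 157 in control cells, and Chd4 at 896 in Mbd3-knockdown and 973 in control cells. The largest differences after Mbd3 itself were those of Rbbp7, a histone-binding subunit (-0.43), and Cdk2ap1, a small subunit (-0.39), on the low side, and of Chd3, the paralog of Chd4 (0.32), and Mta3, a scaffold subunit (0.27), on the high side.

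Most genes differed little. The middle 50% of the log2 differences ran from -0.16 to 0.17 around a median of -0.002, and 95.0% of genes were within 1.5-fold. At least 2-fold higher were 49 of 13389 genes (0.366%), and at least 2-fold lower were 42 (0.314%), 91 in either direction (0.68%); 46 of the 49 and 39 of the 42 had both intensities at or above the floor. Past 1.5-fold, 395 genes were higher (2.95%) and 273 lower (2.04%). At any size, 49.7% of genes were higher and 50.3% lower, and the counts in gene lists below are to be read beside these shares. All lists and their members were chosen with earlier results of these data known, so their counts and medians are descriptions only. Genes past 2-fold were spread over the brightness range, with 0.777% of the brighter 6695 genes and 0.583% of the dimmer 6694. By RefSeq class, the 49 higher genes held 37 protein-coding genes, 9 microRNA genes, 2 long noncoding RNAs and 1 transcribed pseudogene, while the 42 lower genes held 40 protein-coding genes, 1 pseudogene, 1 small nucleolar RNA and 0 microRNA genes. Over all 13389 genes compared, 164 were microRNA genes and 12427 protein-coding.

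**Figure D1:**
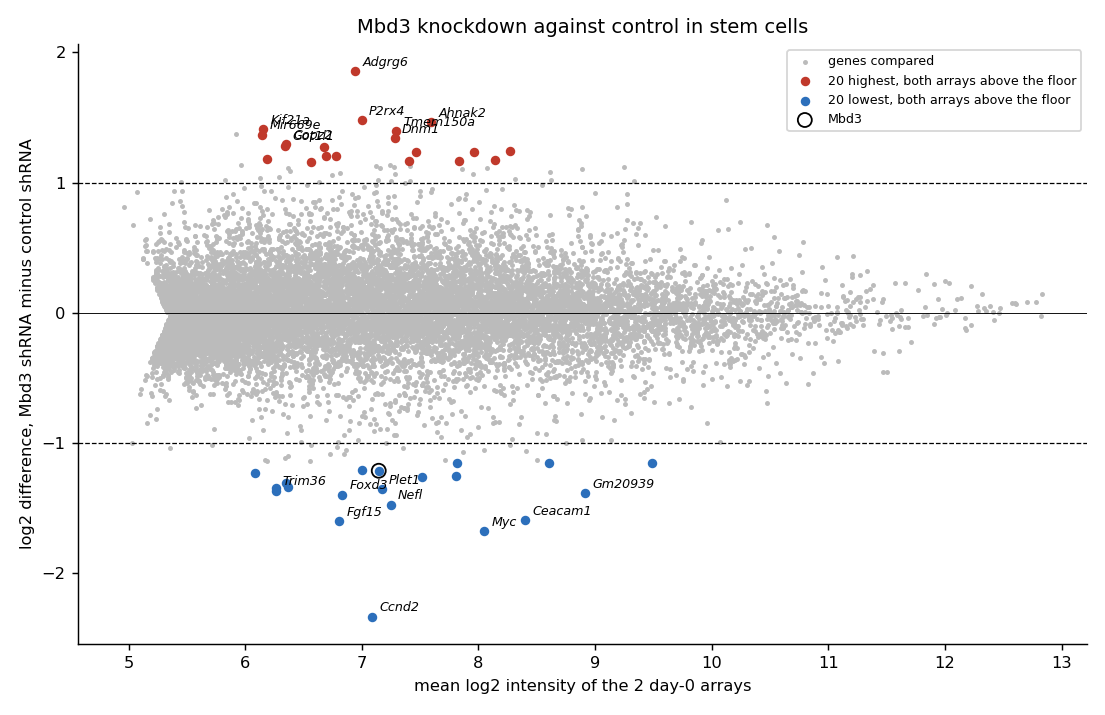
Log2 difference (Mbd3 shRNA minus control shRNA, day 0) against mean log2 intensity of the 2 arrays for the 13389 genes compared, with the 20 highest and 20 lowest genes above the floor coloured and Mbd3 circled; dashed lines mark 2-fold. Most genes lie near 0, Ccnd2 is lowest at -2.34 and Adgrg6 highest at 1.86.

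The highest gene, Adgrg6, encodes an adhesion receptor coupled to G proteins. Its intensity was 234 in Mbd3-knockdown cells, 93.9 in Chd4-knockdown cells and 64.7 in control cells, so the Mbd3-knockdown array stood well above both others. P2rx4, an ATP-gated ion channel, was at 214 in Mbd3-knockdown, 223 in Chd4-knockdown and 76.5 in control cells. Ahnak2, a very large scaffold protein, was at 321 in Mbd3-knockdown, 173 in Chd4-knockdown and 116 in control cells. P2rx4 was thus high in both knockdowns, and Ahnak2 lay between in the Chd4 line. The Chd4 comparison shares its control array with that of Mbd3, so the knockdowns are set side by side and no overlap is computed.

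Also among the 20 highest were Kif21a, Dnm1 and Copz2, which act in transport within the cell. Kif21a, a kinesin motor, was at 116 in Mbd3-knockdown and 43.7 in control cells. Dnm1, the dynamin of synaptic vesicle endocytosis, was at 248 in Mbd3-knockdown, 206 in Chd4-knockdown and 97.8 in control cells. Copz2, a subunit of the COPI vesicle coat, was at 128 in Mbd3-knockdown, 134 in Chd4-knockdown and 52.0 in control cells. Both were high in both knockdown lines. In the list of endocytosis and vesicle coat genes these were the 2 of 25 past 1.5-fold, 18 of 25 were higher, and the median was 0.06, so that the other members lay within 1.5-fold.

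Below these stood Vcan, a matrix proteoglycan, at 475 in Mbd3-knockdown, 223 in Chd4-knockdown and 201 in control cells, and Ttll6, an enzyme that adds glutamate chains to tubulin, at 271 in Mbd3-knockdown, 80.2 in Chd4-knockdown and 115 in control cells. Fermt1, which encodes the integrin activator kindlin-1, was at 157 in Mbd3-knockdown, 48.3 in Chd4-knockdown and 68.2 in control cells. Vcan was at about the control level in the Chd4 line, and Ttll6 and Fermt1 were lowest there. Ddit4, an inhibitor of the growth kinase mTORC1, was at 342 in Mbd3-knockdown, 191 in Chd4-knockdown and 152 in control cells. Mmrn2 (1.17), Mapk13 (1.17), Coro6 (1.16) and Dzip1 (1.23) also lay among the 20, as did Ftx (1.18), a noncoding RNA of the X-inactivation center. Among genes with control under the floor, the 5 with the largest measured differences included Mir466b-3, at least 2.35-fold higher, and Trim7, at least 1.95-fold higher; the others were the pseudogene Tmem181c-ps, Tc2n and Mir300.

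**Figure D2:**
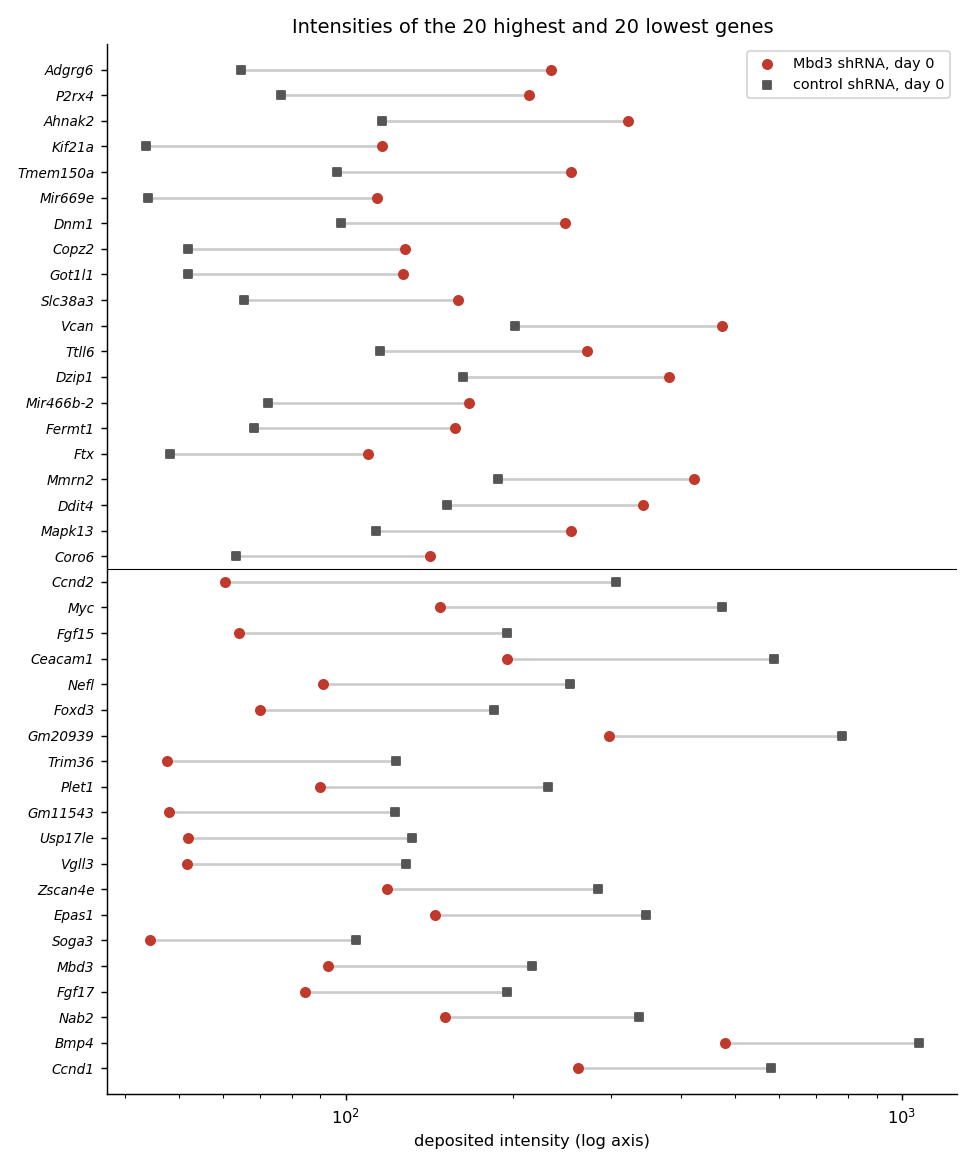
Deposited intensities (log axis) of the 20 highest genes (upper block) and 20 lowest genes (lower block) at day 0, with circles for Mbd3 shRNA and squares for control shRNA, 1 array each. Adgrg6 stands at 234 with Mbd3 shRNA and 64.7 with control shRNA, and Ccnd2 at 60.6 with Mbd3 shRNA and 306 with control shRNA.

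The lowest gene was a G1 cyclin, and another lay among the 20 lowest. Ccnd2, which encodes cyclin D2, was at 60.6 in Mbd3-knockdown, 48.4 in Chd4-knockdown and 306 in control cells. Ccnd1, which encodes cyclin D1, was at 261 in Mbd3-knockdown, 184 in Chd4-knockdown and 581 in control cells. The control array was the highest of the 3 for both. Of the 20 G1 genes compared, these 2 were the only members at least 1.5-fold lower (2.04% of all genes were), and Rb1, the retinoblastoma protein that cyclin D complexes inactivate (0.71), and Cdkn1a, the p21 inhibitor (0.60), were the only ones at least 1.5-fold higher. The list median was -0.02. Of 23 DNA replication genes, 20 were lower with a median of -0.12, and 2 of them, Rrm2 (-0.65) and Pold2 (-0.64), by 1.5-fold; of 19 mitosis genes, 0 passed 1.5-fold in either direction.

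Myc, a transcription factor of growth, was at 148 in Mbd3-knockdown, 170 in Chd4-knockdown and 475 in control cells. Its partners and antagonists did not share that size: of the 14 MYC network genes, Myc alone passed 1.5-fold, and the median was -0.01. Ribosome biogenesis genes, many of which MYC activates, had a median of -0.11 with 17 of 22 lower and 0 past 1.5-fold.

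Of the 10 FGF ligand and receptor genes compared, 4, all ligands, were at least 1.5-fold lower (2.04% of all genes were) and 2, both receptors, at least 1.5-fold higher (2.95% of all genes were). Fgf15 was at 64.3 in Mbd3-knockdown, 82.2 in Chd4-knockdown and 195 in control cells; with all its probe sets averaged its log2 difference was -0.93 in place of -1.60. Fgf17 was at 84.3 in Mbd3-knockdown, 66.2 in Chd4-knockdown and 195 in control cells. Fgf4, the main autocrine FGF of stem cells, was at 223 in Mbd3-knockdown cells, 417 in Chd4-knockdown cells and 436 in control cells, so that the Mbd3-knockdown array alone was low. Fgf18 had a log2 difference of -0.63. Fgfr2, a receptor of FGF4, was at 224 in Mbd3-knockdown, 148 in Chd4-knockdown and 102 in control cells, and Fgfr4 had a difference of 0.60.

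The genes that ERK signaling induces downstream of FGF had a median of -0.21, with 16 of 22 lower. Besides Myc, 2 members were at least 2-fold lower. Spry4, a feedback inhibitor, was at 245 in Mbd3-knockdown, 219 in Chd4-knockdown and 538 in control cells, and Etv1, an ETS factor, at 161 in Mbd3-knockdown, 242 in Chd4-knockdown and 338 in control cells. Nab2, a corepressor of the EGR factors outside that list, was at 151 in Mbd3-knockdown, 166 in Chd4-knockdown and 336 in control cells. Dusp4 (0.51) and Jun (0.53) were the highest members, within 1.5-fold. In the BMP list, Bmp4 was at 481 in Mbd3-knockdown, 770 in Chd4-knockdown and 1072 in control cells, and its target Id1 had a difference of -0.75; the other 12 members were within 1.5-fold.

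Genes of the 2-cell-like state, a rare state of stem cells in which genes of the early embryo's cleavage stage switch on, were lower as a group. Of the 11 compared, 10 had both intensities at or above the floor. All 10 were lower, 8 of them by at least 1.5-fold (2.04% of all genes were) and 3 by 2-fold (0.314% of all genes), with a median of -0.80. The other member, Tdpoz3, was under the floor in Mbd3-knockdown cells and at 46.2 in control cells, so at least 1.12-fold lower. Zscan4e was at 118 in Mbd3-knockdown, 82.5 in Chd4-knockdown and 284 in control cells, and Zscan4c at 77.2 in Mbd3-knockdown, 59.8 in Chd4-knockdown and 124 in control cells. Usp17le, a deubiquitinase gene, was at 52.0 in Mbd3-knockdown, 53.9 in Chd4-knockdown and 131 in control cells. The control array at day 0 was the highest of all 6 arrays for 10 of the 11 genes. Gm5662 was the exception, at 77.0 in Mbd3-knockdown, 205 in Chd4-knockdown and 158 in control cells. These are multicopy families whose copies can share probes, so the members are not separate measurements. The list was chosen with earlier results of these data known, so its counts are a description only. In bulk RNA, fewer cells in the state and less RNA in each such cell cannot be told apart. The Chd4 differences of the 10 genes above the floor, taken from the same control array, had a median of -0.83. Whether that 1 control array was itself high for this state was not tested.

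Promoter windows of Zscan4c and Zscan4d, from 250 bases before to 50 after the start (RefSeq, GRCm38.p6), are shown because these copies were low together and are close to identical, with 280 of 287 aligned bases the same. Capitals mark TATAAA, found on the strand shown, searched on both strands and present in 14.2% of all 27025 genes' windows. The Zscan4c window lies at chr7:11005495-11005794 on the plus strand and the Zscan4d window at chr7:11166099-11166398 on the minus strand. Nothing about a factor is drawn from the match.
Zscan4c: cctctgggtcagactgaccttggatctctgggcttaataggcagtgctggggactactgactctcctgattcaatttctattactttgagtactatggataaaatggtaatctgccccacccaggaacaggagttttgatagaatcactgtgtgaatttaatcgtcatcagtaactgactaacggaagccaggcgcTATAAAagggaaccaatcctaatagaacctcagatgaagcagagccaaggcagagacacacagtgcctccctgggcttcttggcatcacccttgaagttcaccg
Zscan4d: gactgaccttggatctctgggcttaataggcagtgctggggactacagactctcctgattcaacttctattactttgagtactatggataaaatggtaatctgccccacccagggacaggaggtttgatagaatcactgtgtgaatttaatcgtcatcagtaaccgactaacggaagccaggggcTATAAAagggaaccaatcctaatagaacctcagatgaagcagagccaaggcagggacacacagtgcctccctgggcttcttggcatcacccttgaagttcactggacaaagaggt

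Other genes of the 20 lowest had roles outside the groups above. Ceacam1, a cell adhesion receptor of the immunoglobulin class, was at 195 in Mbd3-knockdown, 389 in Chd4-knockdown and 588 in control cells. Trim36, a ubiquitin ligase of the tripartite motif family, was at 47.6 in Mbd3-knockdown, 42.4 in Chd4-knockdown and 123 in control cells. Vgll3, a cofactor of the TEAD factors, was at 51.8 in Mbd3-knockdown, 84.0 in Chd4-knockdown and 128 in control cells. Epas1, a hypoxia-inducible factor, was at 145 in Mbd3-knockdown, 151 in Chd4-knockdown and 346 in control cells. The control array was highest of the day-0 arrays for all 4. With Mbd3 shRNA under the floor, Ddr2, a collagen receptor, was at least 1.81-fold lower and Ccno, a cyclin of multiciliated cells, at least 1.75-fold lower.

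Core pluripotency genes had a median of -0.28, with 18 of 21 lower (50.3% of all genes were) and 3 of them by at least 1.5-fold (2.04% of all genes were). Those 3 were Myc, Foxd3 and Dnmt3b. Foxd3, a forkhead factor needed for self-renewal, was at 70.0 in Mbd3-knockdown, 84.0 in Chd4-knockdown and 185 in control cells. Dnmt3b, a de novo DNA methyltransferase, was at 485 in Mbd3-knockdown, 650 in Chd4-knockdown and 827 in control cells. Nanog (-0.15), Pou5f1 (-0.13) and Sox2 (0.11) lay near the control level.

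Of 25 naive pluripotency genes, 16 were lower and the median was -0.18. Tfcp2l1, a factor of the naive state, was the 1 member at least 1.5-fold higher, at 1414 in Mbd3-knockdown, 1312 in Chd4-knockdown and 904 in control cells. Fgf4 (-0.97), Gbx2 (-0.91), Sgk1 (-0.73) and the nuclear receptor gene Nr0b1 (-0.70) were the 4 members at least 1.5-fold lower (2.04% of all genes were). Tbx3 had a log2 difference of 0.27, Klf4 of 0.20 and Zfp42 of -0.23. The primed epiblast list had a median of -0.29, with 16 of 22 lower and 5 of them by at least 1.5-fold (2.04% of all genes were). Those 5 were Sox4 (-0.71), Cdh2 (-0.69), Pou3f1 (-0.63), Foxd3 and Dnmt3b. Cldn6 (0.65) was the 1 member at least 1.5-fold higher (2.95% of all genes were).

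Trophectoderm genes were split, with 7 of 18 higher and 11 lower (50.3% of all genes were). Tfap2c, a transcription factor of trophectoderm and germ cells, was at 246 in Mbd3-knockdown, 171 in Chd4-knockdown and 132 in control cells, and Cldn4, a tight junction protein, at 489 in Mbd3-knockdown, 509 in Chd4-knockdown and 322 in control cells. Together with Fgfr2 they were the 3 of 18 members at least 1.5-fold higher (2.95% of all genes were). Plet1 was the 1 member at least 1.5-fold lower (2.04% of all genes were). It was at 89.9 in Mbd3-knockdown and 231 in control cells, and stood at 499 in Chd4-knockdown cells. The lineage-defining factors Cdx2 (-0.05) and Eomes (-0.05) were near the control level, and the list median was -0.05. Primitive endoderm genes had a median of -0.23, or -0.12 with values under the floor set to it. Over the 12 of 15 at or above the floor in both groups it was -0.22. Of these 12, 9 were lower, 1 of them by at least 1.5-fold, at -0.83 (2.04% of all genes were). The mesoderm and definitive endoderm median of -0.22 shrank to -0.07 with values under the floor set to it.

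The noncoding genes held a group that stood together. Sfmbt2, which encodes a Polycomb-related protein, hosts in an intron a large rodent cluster of microRNAs of the miR-466, miR-467 and miR-669 families. Of 22 hairpins inside the gene with a probe set, 16 passed the brightness filter, and 11 of these were at or above the floor in both groups. Those 11 were all higher in Mbd3-knockdown cells, 10 by at least 1.5-fold (2.95% of all genes were) and 7 by at least 2-fold (0.366% of all genes), with a median of 1.03. The other 5 were under the floor in control cells and entered through the Mbd3-knockdown array; of them Mir466b-3 was at least 2.35-fold higher, Mir669m-1 at least 1.41-fold, Mir669c at least 1.13-fold and Mir466n at least 1.12-fold, and Mir297a-4 was under the floor in both groups. The 6 dimmer hairpins were not compared. Mir669k was at 897 in Mbd3-knockdown, 497 in Chd4-knockdown and 413 in control cells, Mir669j at 914 in Mbd3-knockdown, 486 in Chd4-knockdown and 454 in control cells, and Mir466b-2 at 167 in Mbd3-knockdown, 81.6 in Chd4-knockdown and 72.4 in control cells. Sfmbt2 itself was at 946 in Mbd3-knockdown, 521 in Chd4-knockdown and 570 in control cells, a log2 difference of 0.73. For all 11 hairpins above the floor the Mbd3-knockdown array was the highest of the day-0 arrays; their Chd4 differences ran from -0.16 to 0.55 with a median of 0.23.

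The Sfmbt2 window from 250 bases before to 50 after the start (RefSeq, GRCm38.p6, chr2:10370201-10370500, plus strand) is shown because host and hairpins were high together. Capitals mark its 9 CG dinucleotides, and nothing is drawn from them.
Sfmbt2: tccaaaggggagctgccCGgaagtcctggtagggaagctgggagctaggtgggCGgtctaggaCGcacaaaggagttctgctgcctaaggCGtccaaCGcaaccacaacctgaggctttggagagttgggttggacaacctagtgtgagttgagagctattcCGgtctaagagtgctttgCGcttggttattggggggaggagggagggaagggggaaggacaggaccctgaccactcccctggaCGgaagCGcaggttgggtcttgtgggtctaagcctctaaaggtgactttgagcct

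The hairpins lie in the same host gene and fall into families, so they are not independent; their sequences were not compared here, and whether probes are shared was not tested. The probe sets are annotated to the hairpin genes, and their values are not taken as levels of the mature microRNAs. Whether they read the hairpins or the unspliced host transcript was not tested. The 122 microRNA genes outside this cluster and outside the imprinted Dlk1 to Dio3 region held 98 at or above the floor in both groups, with a median of -0.08, 4 at least 1.5-fold higher, 3 at least 1.5-fold lower and 0 past 2-fold. The grouping was made after the values were seen.

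**Figure D3:**
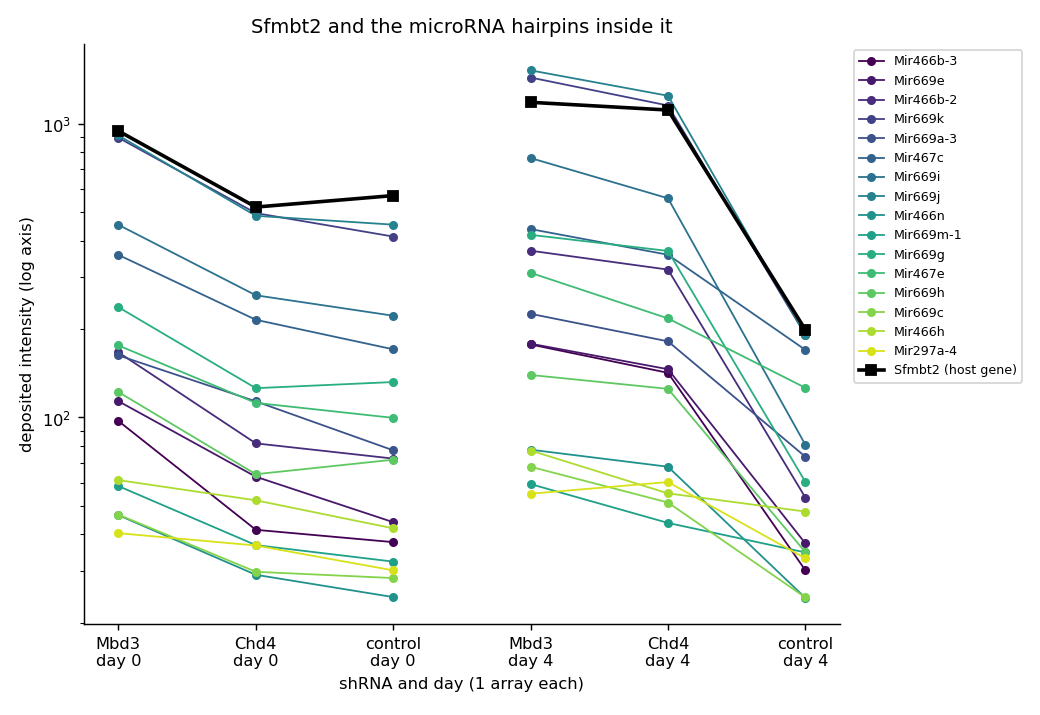
Deposited intensities (log axis) of Sfmbt2 (black squares) and of the 16 microRNA hairpins inside it (circles) on the 6 arrays, 1 array a position; lines join the arrays of a day. The 16 include 5 that lie under the floor of 41.3 in control cells at day 0; the other 11 are all higher with Mbd3 shRNA than with control shRNA, for example Mir669k at 897 with Mbd3 shRNA and 413 with control shRNA, and again at day 4.

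Hairpins of the Dlk1 to Dio3 region, a second large microRNA cluster expressed from the maternal allele, held 26 that passed the filter, 21 of them at or above the floor in both groups. Of these 21, 16 were higher (49.7% of all genes were) and 4 by at least 1.5-fold (2.95% of all genes were), with a median of 0.12. Mir493 was at 223 in Mbd3-knockdown, 220 in Chd4-knockdown and 132 in control cells, Mir329 at 175 in Mbd3-knockdown, 138 in Chd4-knockdown and 105 in control cells, and Mir667 at 170 in Mbd3-knockdown, 132 in Chd4-knockdown and 106 in control cells. Mir1193 had a log2 difference of 1.03, the largest of the 4. Mir300 was at 58.0 in Mbd3-knockdown cells and under the floor in control cells, so at least 1.40-fold higher. The Chd4 differences of the 21 had a median of 0.09. Rian, a noncoding transcript of the region, was at 678 in Mbd3-knockdown and 574 in control cells, and Meg3 was near the floor in both. The mature sequences of these 5 hairpins are given because their 10 arms carry 10 different seeds (RefSeq, GRCm38.p6). Capitals mark the seed, bases 2 to 8 from the 5′ end.
miR-1193-3p: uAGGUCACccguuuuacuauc
miR-1193-5p: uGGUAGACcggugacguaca
miR-300-3p: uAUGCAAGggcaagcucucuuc
miR-300-5p: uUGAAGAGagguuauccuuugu
miR-493-3p: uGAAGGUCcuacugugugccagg
miR-493-5p: uUGUACAUgguaggcuuuc
miR-329-3p: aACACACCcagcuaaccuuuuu
miR-329-5p: aGAGGUUUucugggucucuguu
miR-667-3p: uGACACCUgccacccagcccaag
miR-667-5p: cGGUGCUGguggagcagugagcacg

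The p53 target list had the highest median of all 46 lists, 0.28. Of the 35 genes compared, 25 were higher, where 49.7% of all genes were, 7 of them by at least 1.5-fold (2.95% of all genes) and 0 by 2-fold. Trp53inp1, a stress-induced regulator of cell death and autophagy, was at 1499 in Mbd3-knockdown, 846 in Chd4-knockdown and 824 in control cells. Apaf1, the scaffold of the apoptosome, was at 449 in Mbd3-knockdown, 255 in Chd4-knockdown and 260 in control cells, and Perp, a membrane protein of p53-driven apoptosis, at 417 in Mbd3-knockdown, 227 in Chd4-knockdown and 275 in control cells. The Mbd3-knockdown array was the highest of the day-0 arrays for these 3. Cdkn1a was at 612 in Mbd3-knockdown, 690 in Chd4-knockdown and 404 in control cells, high in both knockdowns. Trp53cor1, a noncoding RNA gene (0.89), Ptprv, a tyrosine phosphatase gene (0.86), and Tap1, a peptide transporter gene (0.76), completed the 7. At the other end lay Sesn1 (-0.36), Tigar (-0.31) and Dram1 (-0.31). Of 22 genes of the apoptosis machinery, Apaf1 alone passed 1.5-fold, and the median was 0.02. For the whole p53 target list the Chd4 median was -0.02.

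Cholesterol synthesis genes had a median of -0.27, with 15 of 19 lower. Fdft1, which encodes squalene synthase, was at 400 in Mbd3-knockdown, 922 in Chd4-knockdown and 788 in control cells. Cyp51, a demethylase of the same pathway, was at 94.3 in Mbd3-knockdown, 150 in Chd4-knockdown and 148 in control cells. For both, the Mbd3-knockdown array alone was low, and they were the 2 members past 1.5-fold. In fatty acid synthesis, Scd1, the desaturase that makes monounsaturated fatty acids, was at 141 in Mbd3-knockdown, 214 in Chd4-knockdown and 310 in control cells, and the elongase gene Elovl5 at 358 in Mbd3-knockdown, 600 in Chd4-knockdown and 617 in control cells. The other 10 fatty acid genes were within 1.5-fold, and that list's median was -0.06.

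Neuronal genes lay on both sides, with 13 of 20 lower (50.3% of all genes were) and 7 higher. Nefl, the light neurofilament subunit, was at 90.9 in Mbd3-knockdown, 126 in Chd4-knockdown and 253 in control cells, Stmn2, a microtubule regulator of growing axons, at 761 in Mbd3-knockdown, 1392 in Chd4-knockdown and 1517 in control cells, and Crmp1, a mediator of semaphorin signals, at 337 in Mbd3-knockdown, 514 in Chd4-knockdown and 666 in control cells. Those 3 were the members at least 1.5-fold lower (2.04% of all genes were). Kif21a and Dnm1, described above, were the 2 at least 1.5-fold higher (2.95% of all genes were), both by at least 2-fold. The list of 20 had a median of -0.18. Of 21 early neural progenitor genes 12 were at or above the floor in both groups; 9 of these were lower, 0 passed 1.5-fold, and the median was -0.17. Sox9 was under the floor in Mbd3-knockdown cells and at least 1.40-fold lower. Among 13 adhesion receptors of the G protein class, Adgrg1 was at 206 in Mbd3-knockdown, 198 in Chd4-knockdown and 94.1 in control cells. Celsr1, a planar polarity cadherin, was at 155 in Mbd3-knockdown, 106 in Chd4-knockdown and 92.7 in control cells. With Adgrg6 they made 3 members at least 1.5-fold higher (2.95% of all genes were) and 0 lower (2.04% of all genes were). The median was 0.04, or -0.24 among members with both arrays at 100 or more. This list, which holds the highest gene, was chosen with earlier results of these data known, so its count is a description only.

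Chromatin genes mostly stayed near control. Of 20 Polycomb genes, Phf19, an accessory subunit of the complex PRC2, was at 216 in Mbd3-knockdown, 242 in Chd4-knockdown and 107 in control cells, and Epop, another PRC2 partner, at 241 in Mbd3-knockdown, 254 in Chd4-knockdown and 437 in control cells. For both, the knockdown arrays lay close to each other and apart from control. Of 15 methyl-CpG-binding and DNA methylation genes, Mbd3 and Dnmt3b were the 2 past 1.5-fold; Dnmt3a stood at -0.53 and Mbd4 at 0.46. No member of the BAF remodeling complex passed 1.5-fold (14 compared, median 0.04).

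Of 14 germline genes 11 were at or above the floor in both groups, with a median of -0.31. Of these 11, 4 were higher, by up to 0.43, and 7 were lower (50.3% of all genes were), 3 by at least 1.5-fold (2.04% of all genes were). Among members with both arrays at 100 or more the median was 0.12, so no direction is read from the list median. Mael, a gene of the piRNA pathway, was at 56.3 in Mbd3-knockdown, 67.6 in Chd4-knockdown and 121 in control cells, and Dazl, whose protein binds germ cell mRNAs, at 59.6 in Mbd3-knockdown, 132 in Chd4-knockdown and 113 in control cells. The stress and metabolism lists were close to 0: of 22 integrated stress response genes only Ddit4 passed 1.5-fold, of 20 glycolysis and hypoxia genes only Ndrg1 (-0.86), and of 16 heat shock, 17 oxidative phosphorylation, 11 NRF2 and 13 housekeeping genes none did. The housekeeping median was -0.01, beside -0.002 over all genes.

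In the remaining lists, the LIF response apart, few members passed 1.5-fold. The LIF response had a median of -0.18 with 11 of 16 lower. Over its 15 members at or above the floor in both groups the median was -0.10. At least 1.5-fold lower were 4 members (2.04% of all genes were). These were Pim3, a survival kinase (-0.72), Msc (-0.61), and Gbx2 and Sgk1, named above. Tfcp2l1 was the 1 member at least 1.5-fold higher (2.95% of all genes were). In the Nodal list Skil, a brake on SMAD signaling, differed by -0.84 and Acvr1b, an activin receptor, by 0.72. Among YAP and TEAD targets Ptpn14, a phosphatase that restrains YAP, differed by 0.91, against Vgll3 at -1.31. Among extracellular matrix and adhesion genes, the neural adhesion molecule Ncam1 (-0.76) was lower with Ceacam1 and Cdh2, and Vcan higher. Single members passed in the imprinted genes (Phlda2, -0.94), the interferon response (Ddx58, an RNA sensor, -0.86), the fibroblast list (Acta2, -0.62) and the histone genes (Macroh2a1, 0.66). Amino acid transporters held Slc38a3 (1.28) and Slc7a6 (0.65), both higher, and P2rx4 was the 1 of 7 purinergic receptors past 1.5-fold.

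**Figure D4:**
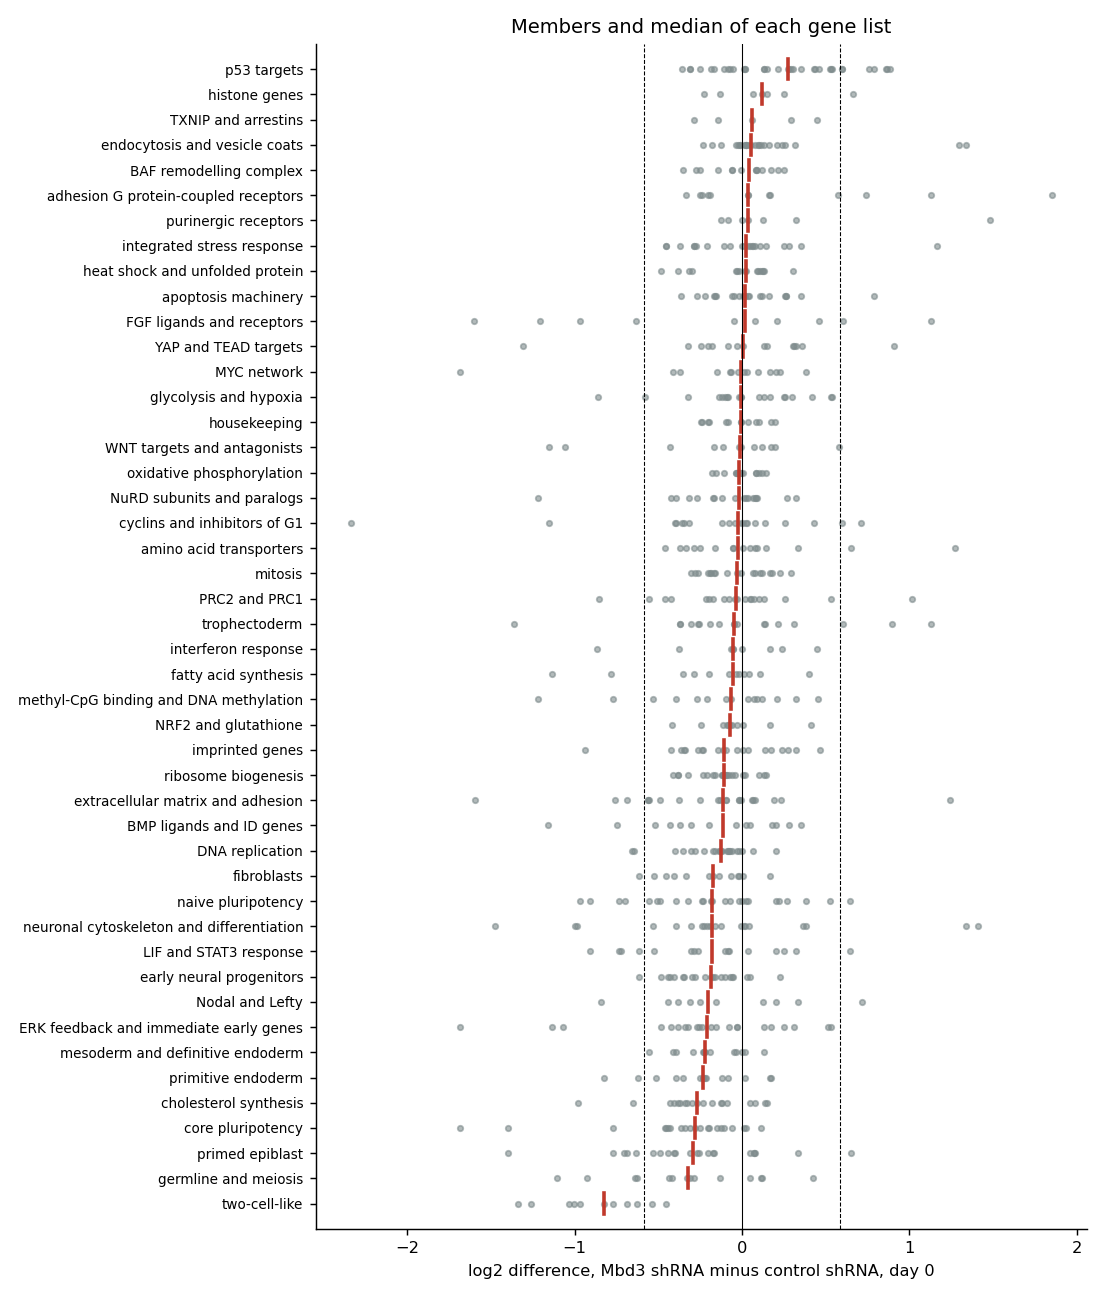
Log2 difference (Mbd3 shRNA minus control shRNA, day 0) of each member compared (points) in the 46 gene lists, ordered by median (bars); dashed lines mark 1.5-fold. The 2-cell-like list lies lowest with a median of -0.83 over its 11 members, p53 targets highest with 0.28, and most medians are within 0.3 of 0.

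The day-4 pair, Mbd3-knockdown against control after neural differentiation, shares no array with the day-0 pair, so it shows how the genes past 2-fold at day 0 stood in other arrays under the same shRNAs. Of the 49 higher genes, 39 were also higher at day 4 (79.6%, where 46.4% of all genes compared at day 0 were), 22 of them by 2-fold (3.38% of all genes), and their median day-4 difference was 0.87. The 49 include 8 Sfmbt2 hairpins, all of them among the 22. Those hairpins share a host gene and are not independent, so they raise these counts and the median together. Of the 42 lower genes, 19 were lower and 23 higher at day 4, with 10 at least 2-fold lower (3.8% of all genes) and 6 at least 2-fold higher (5 with values under the floor set to it), and a median of 0.09. Across all 13389 genes, which are not independent, the differences at the 2 days correlated at r = 0.09 (Spearman's rho 0.05), a description of these arrays. Genes differ between the days in the control line as well, so the day-4 values describe another cell state.

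Among the lower genes, Ccnd2 was again low, at 180 in Mbd3-knockdown and 1858 in control cells at day 4, and Nefl was at 71.9 in Mbd3-knockdown and 533 in control cells. Fgf15 was at 230 in Mbd3-knockdown and 938 in control cells at day 4, Ccnd1 at 377 in Mbd3-knockdown and 1139 in control cells, and Sfrp1, a secreted WNT antagonist that was at 184 in Mbd3-knockdown and 383 in control cells at day 0, had a day-4 difference of -2.63. Myc (0.38), Foxd3 (0.31), Spry4 (0.88) and Zscan4e (0.24) were not lower at day 4. Myc was at 198 in Mbd3-knockdown and 152 in control cells at day 4, so the control level of 475 was seen at day 0 alone. Mbd3 itself was at 138 in Mbd3-knockdown and 183 in control cells at day 4, a smaller gap than at day 0.

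Among the higher genes, the 11 Sfmbt2 hairpins above the floor at day 0 were all higher again at day 4, with a median of 2.26. Mir669k was at 1439 in Mbd3-knockdown, 1156 in Chd4-knockdown and 191 in control cells at day 4, and Sfmbt2 at 1185 in Mbd3-knockdown, 1115 in Chd4-knockdown and 199 in control cells. At that day both knockdown arrays were far above the control array they share. Mmrn2, an extracellular matrix protein of vessels, was at 239 in Mbd3-knockdown and 61.0 in control cells at day 4, and Mapk13 at 237 in Mbd3-knockdown and 77.9 in control cells. Kif21a (-0.88), Copz2 (-0.52) and Vcan (-0.32) were lower. Of the p53 targets, 30 of 35 were higher at day 4 with a median of 0.53, among them Perp at 1.84 and Trp53inp1 at 1.27. Of the 19 cholesterol genes 18 were lower and 1 higher with a median of -0.75. For the 11 genes of the 2-cell-like state, 8 were higher and 3 lower with a median of 0.20, and 0 passed 2-fold. Tdpoz3, among those 3, was under the floor of 41.3 in both groups. Over all genes compared at day 0, 46.4% were higher at day 4.

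**Figure D5:**
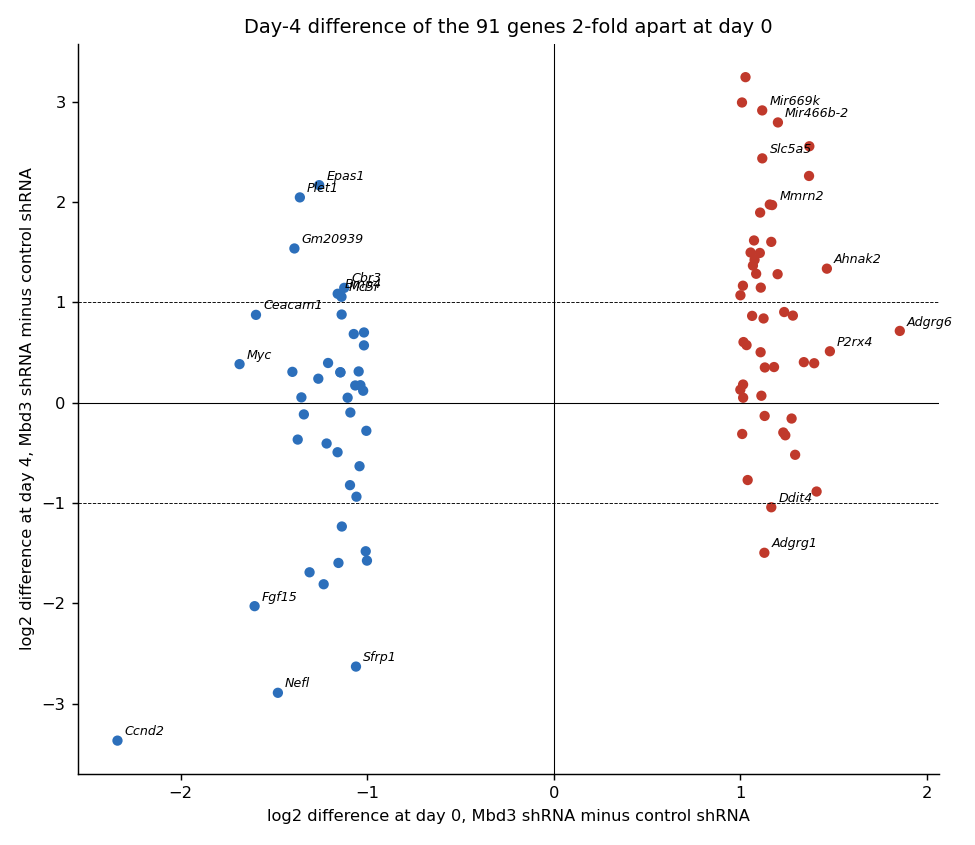
Log2 difference at day 4 against that at day 0 (both Mbd3 shRNA minus control shRNA) for the 91 genes at least 2-fold higher (red) or lower (blue) at day 0; dashed lines mark 2-fold at day 4. Of the 49 red points, 8 of which are Sfmbt2 hairpins, 39 lie above 0, while the 42 blue points divide into 19 below and 23 above 0.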

How the data were processed

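Total RNA, 1 array for each group, was read on Mouse Gene 2.0 ST arrays. The authors deposited intensities on a linear scale; the series design text names GeneSpring GX 12.6.1, and the submitters' processing notes name RMA, without a version. RMA equalizes array distributions, so a shift shared by all genes would not show. The lowest intensities of the 6 arrays lay between 17.4 and 17.6; no source used here says whether a constant was added, and subtracting 16 was tried as an alternative.

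Log2 was taken without further scaling. Symbols were updated through RefSeq (GRCm38.p6; 23328 of 23521 gene IDs held). For a gene with several probe sets, that with the highest 6-array mean was used. Of 949 entries in 46 gene lists, 865 matched exactly and 12 by synonym; 72 are not analysed here, and some genes stand in several lists. Members and lists were chosen with earlier results of these data known. Named genes were Mbd3, the 20 highest and 20 lowest above the floor, the 5 largest measured differences in each direction among genes with an array under the floor, and in each list up to 3 highest, 3 lowest and members past 1.5-fold; Nab2 and Sfrp1 also meet it. The microRNA clusters with their hosts, and a few well-known list members (among them Nanog, Pou5f1, Sox2, Klf4, Tbx3, Zfp42, Mbd2 and Chd4), were added after values were seen. Promoter windows were held for 34 of the 49 higher and 21 of the 42 lower genes, fewer than 80%, so a comparison of promoter letters is void. Counting was tested on simulated arrays. Python 3.11.15, numpy 2.4.6, pandas 2.3.3 and matplotlib 3.10.9 were used.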

Additional observations from a re-analysis of the deposited data

Results flagged for a closer look

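With 1 array a group no sample could be set against its own group. Of the 91 genes at least 2-fold apart at day 0, 8 were by measured intensity at least 2-fold apart in the opposite direction at day 4; the difference between days was not tested. Lower in Mbd3-knockdown cells at day 0 and higher at day 4 were Epas1 (2.17 at day 4, -1.26 at day 0), Plet1 (2.05 and -1.36), Gm20939 (1.54 and -1.39), Cbr3 (1.15 and -1.12), Bmp4 (1.09 and -1.16) and Mc5r (1.06 and -1.14). Higher at day 0 and lower at day 4 were Adgrg1 (-1.50 and 1.13) and Ddit4 (-1.04 and 1.17). Epas1, which encodes a hypoxia-inducible factor, was at 261 in Mbd3-knockdown and 58.0 in control cells at day 4, and at 145 in Mbd3-knockdown and 346 in control cells at day 0. At day 4 control cells were under the floor of 41.3 for Plet1, Mc5r and Cbr3, so as bounds Plet1 was at least 4.10-fold higher, Mc5r at least 2.05-fold and Cbr3 at least 1.54-fold, which for Cbr3 is under 2-fold.

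Probe sets outside the comparison also differed at day 0. Of 2904 probe sets without a gene symbol that passed the brightness filter, 62 were at least 2-fold higher and 4 lower, and of 1086 with several symbols, 22 were higher and 18 lower. In either direction these made 2.27% of those without a symbol and 3.68% of those with several, beside 0.68% of the genes compared. The excess on the high side among those without a symbol has no named gene here.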

How the results depend on the processing

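Subtracting 16 from the intensities gave 122 genes at least 2-fold higher (49 as reported) and 84 lower (42 as reported), and 661 higher and 551 lower past 1.5-fold (395 and 273 as reported). With both arrays at 100 or more, 22 genes were higher and 17 lower past 2-fold, and 184 higher and 143 lower past 1.5-fold, since fewer genes enter. The counts stayed within 1.5 times under the other 5 alternatives: the floor, median centring, no filter, averaged probe sets and probe sets taken singly. The Mbd3 difference, the list medians and the day-4 medians moved by less than 1.5-fold wherever a value was given, and no sign turned for Mbd3, the named genes or the day-4 medians. List medians near 0 did turn: 23 values of 17 lists had the other sign under an alternative. Of these, germline genes stood at 0.12 and adhesion receptors at -0.24 with both arrays at 100 or more, where few members are left, and the others were at most 0.06 in size; no direction is read from such medians. The Sfmbt2 hairpin median was put through the same alternatives after seeing the data, and also moved by less. Of single named genes, Fgf15 had a difference of -0.93 with probe sets averaged. With 16 subtracted, Mir300 stood at 1.55, Tmem181c-ps at 1.62, Tdpoz2 at -1.78, Tdpoz3 at -2.10 and Tmprss11d at -1.60, all with 1 array under the floor; with the floor, Tdpoz3 stood at -0.16 and Tmprss11d at -0.21. Single genes have no value with probe sets taken singly, nor where the minimum of 100 removed them. No paired analysis was possible because each group holds 1 array, and no replicate could be left out. No detection call is used here, so values under the floor are bounds.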
